A study of Mus musculus with 6 samples.

Results

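The genes described here are 46 interferon-stimulated genes and regulators of the interferon response, followed in LLC cells, a mouse line derived from a Lewis lung carcinoma. They were chosen by symbol from a list made with earlier results of these data known, and are ordered here by role from receptors to effectors. Of the 46, 45 had reads in at least 1 library and 1, Oas1a, was listed at 0 in every library. The deposited table held 55367 rows, of which 24138 had reads. RNA sequencing compared 3 libraries of cells given 5 µM STM2457 for 46 h with 3 libraries of cells given the solvent DMSO for the same time. STM2457 is a small molecule that inhibits METTL3, the methyltransferase behind most N6-methyladenosine in messenger RNA. Cells of both groups were labelled as wild type, kept in medium with serum, and no interferon treatment is named in the labels. Whether each library had its own culture is not stated, so the p-values speak for the spread among these 6 samples alone, which may be technical.

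Interferons signal through cell-surface receptors. Type I interferons bind a receptor of the IFNAR1 and IFNAR2 chains and interferon gamma one of the IFNGR1 and IFNGR2 chains. The kinases JAK1, JAK2 and TYK2 then phosphorylate STAT proteins. STAT2 and IRF9 take part in the complex that binds interferon-stimulated response elements in promoters, and STAT dimers bind gamma-activated sites. The genes switched on in this way encode proteins that block viral entry, translation and replication, and others that feed back on the receptor.

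The reads assigned to genes numbered 17911994, 17917218 and 17877631 in STM2457 replicates 1 to 3, and 17671694, 17676813 and 17679441 in DMSO replicates 1 to 3. They were recovered from the deposited log2 values, and levels below are normalised reads, scaled by each library's size factor. Of the 45 genes, 39 gave reads within 0.05 of a whole number in every library, and the largest distance was 0.152 reads, for Ifnar2. The log2 differences are those of the deposited values, which pull each gene towards its own average, whereas folds were fitted to the recovered reads. Both run as STM2457 over DMSO. The target gene Mettl3 measured 499, 451 and 513 normalised reads in STM2457 libraries and 469, 601 and 540 in DMSO libraries, and the groups overlapped (limma adjusted p = 0.15). The labels place the line in lung and call it a cancer cell. The epithelial markers Epcam and Cdh1 were listed at 0, and the sum of the 5 epithelial markers ran from 0 to 9.91 normalised reads in STM2457 libraries and from 11.9 to 14.0 in DMSO libraries. Leukocyte markers summed to between 1.98 and 8.94 normalised reads with STM2457 and between 2.00 and 5.02 with DMSO, with the leukocyte gene Ptprc at 1 read or none per library. Macrophage markers summed to between 98.1 and 122 with STM2457 and between 100 and 114 with DMSO. Most of these were reads of Cd68, which did not pass (limma adjusted p = 0.68). The T cell, B cell and endothelial lists each summed to at most 8.94 with STM2457 and 5.96 with DMSO. The summed markers of lung alveolar cells ran from 0 to 1.99 normalised reads with STM2457 and from 0.993 to 3 with DMSO, and those of fibroblasts from 361 to 411 with STM2457 and from 345 to 371 with DMSO. Within the fibroblast list Pdgfrb rose 2.54-fold (limma adjusted p = 2.0e-09), Col1a2 fell to 0.465 of its DMSO level (3.5e-08) and the other 3 did not pass. Of the 4 plasmacytoid dendritic cell markers, Siglech was listed at 0, Irf8 had few reads, Tcf4 fell to 0.671 (limma adjusted p = 1.1e-06) and Bst2, also described below, rose. The part of these markers in the results was not tested. In bulk RNA, fewer cells of a type and less RNA per cell cannot be told apart.

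After STM2457, 15 of the 33 genes with a mean of at least 10 reads rose, 1 fell and 17 did not pass the test (limma on the deposited log2 values, Benjamini-Hochberg adjusted p under 0.05 over all 12618 genes tested). Among all tested genes 30.7% rose and 25.7% fell. The 33 genes were a subset set by expression, and the other 13 were too low to test. The median log2 difference was 0.061 over the 33 and 0.004 over all tested genes, and the median fold was 1.12 against 1.01. The changes were modest, with folds from 0.646 for Isg20 to 1.68 for Ifit3. The counts moved when the deposited values were centred another way. With the upper quartile of each library set equal, a shift of 0.038 on the log2 scale, 7 rose and 7 fell, beside 22.3% and 38.2% of all tested genes. The split of all called genes moved likewise, with 2819 higher and 4814 lower in place of 3868 higher and 3240 lower. The shift was made on the deposited values, where genes of few reads are pulled most towards their average. It weighs more on them than the same rescaling of reads would. Ifit3, for example, had a log2 difference of 0.073 there and 0.749 in the recovered reads. The calls that moved were those of genes of few reads, Ifit3, Igtp and Isg15, but also those of genes of many reads. Among the latter were Ifngr2, Trim25, Jak1 and Ifitm2, with means of 1186, 1199, 4669 and 4632 normalised reads. What part of the moved calls came from the pull towards the average was not tested.

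The 8 genes that passed in the fit and in all 12 alternatives run were the receptor genes Ifnar2 and Ifngr1, the transcription factor gene Irf9, the effector genes Ifit2, Ifitm3, Parp14 and Irgm1, all of them higher, and the exonuclease gene Isg20, which was lower. Throughout the fit and the 11 alternatives that keep every tested gene, 21.2% of the 33 genes were higher and 3.03% lower. The shares of all tested genes were 22.3% and 18.5%. In each of the 8 genes, chosen by their calls in these same libraries, the libraries of STM2457 and of DMSO did not overlap. Over the 33 genes 16 had every STM2457 library above every DMSO library and 3 had every one below, beside 33.4% and 28.4% of all tested genes. The spread between libraries was small, with a median coefficient of variation of 5.18% among STM2457 libraries and 7.25% among DMSO libraries over the 33 genes.

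**Figure D1:**
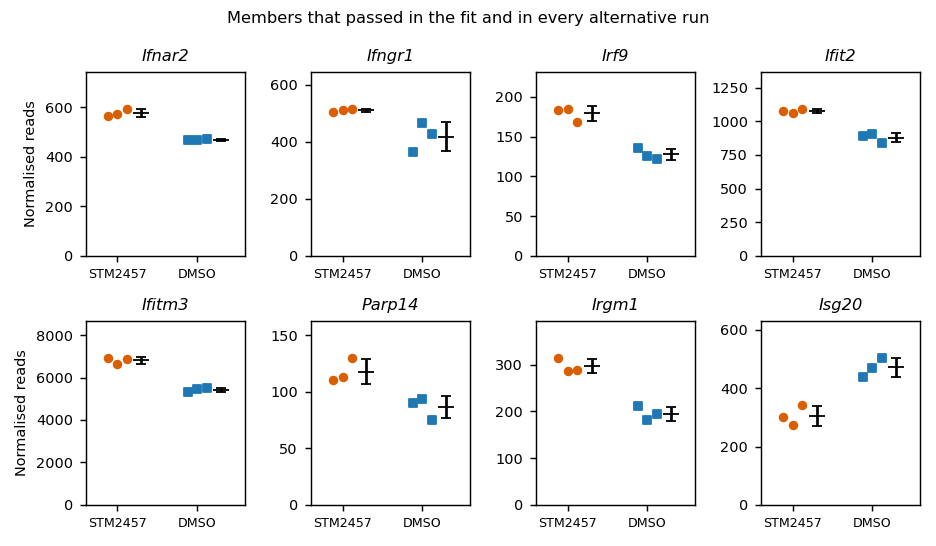
Normalised reads per library (vertical axes, from 0) of the 8 genes that passed in the fit and in all 12 alternatives, with STM2457 libraries as circles and DMSO libraries as squares. Black bars give the mean and SD of the 3 libraries. The STM2457 libraries lie above all DMSO libraries in 7 genes and below them in Isg20.

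Among the receptor chains, 3 of 4 rose and none fell, beside 30.7% and 25.7% of all tested genes. With upper-quartile centring 2 rose and none fell, beside 22.3% and 38.2%. Ifnar2, for the chain of the type I receptor that holds JAK1, had 565, 573 and 594 normalised reads in STM2457 libraries and 466, 468 and 473 in DMSO libraries. It rose 1.23-fold (95% interval 1.14 to 1.33, limma adjusted p = 1.0e-04). The Ifnar2 gene occupies bases 91372783 to 91405589 of chromosome 16 (GRCm38, plus strand), near Ifnar1 and Ifngr2, which begin at 91485238 and 91547072 on the same chromosome and strand. Ifnar1, for the partner chain, had 817, 835 and 922 normalised reads with STM2457 and 859, 739 and 780 with DMSO, overlapping groups that did not pass (limma adjusted p = 0.10). Without DMSO replicate 1, its highest DMSO library, Ifnar1 passed as higher (adjusted p = 0.015).

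The interferon gamma receptor showed the same direction in both chains. Ifngr1, for the chain that binds interferon gamma, had 504, 511 and 516 normalised reads with STM2457 and 363, 466 and 426 with DMSO, a 1.23-fold rise (limma adjusted p = 0.0015). The STM2457 libraries lay close together and the DMSO libraries were spread, with replicate 1 lowest. Ifngr2 had 1192, 1302 and 1235 normalised reads with STM2457 and 1117, 1130 and 1139 with DMSO, a 1.10-fold rise (limma adjusted p = 0.013). The Ifngr2 call was lost with upper-quartile centring (adjusted p = 0.19) and without STM2457 replicate 2 (0.11).

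Of the 3 receptor kinase genes, Jak2 rose and the other 2 did not pass, where 30.7% of all tested genes rose and 25.7% fell. Jak2, which serves the interferon gamma receptor, had 692, 630 and 671 normalised reads in STM2457 libraries and 598, 539 and 600 in DMSO libraries, a 1.15-fold rise (limma adjusted p = 0.0062, and 0.07 with upper-quartile centring). Jak1, shared by both receptors, averaged 4599 ± 103 with STM2457 and 4738 ± 154 with DMSO (SD, n = 3 each, limma adjusted p = 0.35). Tyk2, the kinase of the IFNAR1 chain, averaged 596 ± 14.0 with STM2457 and 642 ± 23.5 with DMSO (SD, n = 3 each), with every STM2457 library below every DMSO library, and did not pass (limma adjusted p = 0.11). With upper-quartile centring Jak1 (adjusted p = 0.012) and Tyk2 (0.0091) passed as lower and none rose. Among all tested genes 22.3% rose and 38.2% fell with that centring.

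Of the 4 transcription factor genes tested, Irf9 and Irf2 rose and none fell, beside 30.7% and 25.7% of all tested genes. With upper-quartile centring 1 rose and 1 fell, beside 22.3% and 38.2%. Irf9, for a DNA-binding partner of STAT2, had 184, 185 and 168 normalised reads in STM2457 libraries and 135, 126 and 122 in DMSO libraries, a 1.40-fold rise (limma adjusted p = 1.6e-04). Exons of Irf9, on chromosome 14 from 55603571 to 55610030, overlap those of Rnf31 on the same strand. Irf2, for a factor that competes with IRF1 at shared sites, averaged 536 ± 22.2 with STM2457 and 476 ± 10.7 with DMSO (SD, n = 3 each), a 1.12-fold rise (limma adjusted p = 0.019). The Irf2 call was lost with upper-quartile centring (adjusted p = 0.19), without DMSO replicate 3 (0.069) and without STM2457 replicate 1 (0.099).

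Stat2 had 234, 232 and 231 normalised reads with STM2457 and 194, 199 and 216 with DMSO. The groups did not overlap, but the 1.15-fold difference lay just outside the threshold (limma adjusted p = 0.051), and it passed in 3 of 12 alternatives. Irf1, itself a target of interferon gamma, had 460, 408 and 435 normalised reads with STM2457 and 447, 556 and 455 with DMSO, overlapping groups with DMSO replicate 2 highest (limma adjusted p = 0.087). It passed as lower without DMSO replicate 1 (adjusted p = 0.028) and with upper-quartile centring (0.019). Irf7, which amplifies type I interferon production and is itself strongly induced by interferon, had only 6, 4 and 8 reads with STM2457 and 7, 4 and 12 with DMSO and was not tested.

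The IFIT and IFITM proteins act early against viruses, the IFIT proteins by binding viral RNA and the IFITM proteins by blocking fusion at cell membranes. Ifitm3 had 6937, 6630 and 6879 normalised reads in STM2457 libraries and 5312, 5442 and 5511 in DMSO libraries, a 1.26-fold rise (95% interval 1.20 to 1.32, limma adjusted p = 4.1e-08). Its neighbours on chromosome 7 did not pass. Ifitm2 had 4532, 4520 and 4568 normalised reads with STM2457 and 4709, 4713 and 4748 with DMSO, a fold of 0.961 with every STM2457 library lower (limma adjusted p = 0.18). With upper-quartile centring Ifitm2 passed as lower (adjusted p = 0.0034). Ifitm1 had 360, 394 and 466 normalised reads with STM2457 and 365, 416 and 415 with DMSO, with overlapping groups (limma adjusted p = 0.82). The IFITM genes have related sequences, and the treatment of reads that match several genes is not stated.

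In the Ifit cluster on chromosome 19, levels of neighbouring genes were far apart. Ifit2 had 1073, 1061 and 1093 normalised reads in STM2457 libraries and 887, 907 and 841 in DMSO libraries, a 1.22-fold rise (limma adjusted p = 1.3e-05). Ifit3 had 21.9, 20.9 and 31.7 normalised reads with STM2457 and 15.0, 14.9 and 13.1 with DMSO, a 1.68-fold rise (limma adjusted p = 0.016). The groups did not overlap, but the Ifit3 call was lost with upper-quartile centring (adjusted p = 0.24) and without STM2457 replicate 3, its highest library (0.12). Ifit3 has the close copy Ifit3b, with which reads may have been shared. Ifit1 had 1, 2 and 0 reads with STM2457 and 0, 0 and 2 reads with DMSO.

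Promoter sequences of 5 genes are shown because they set levels beside motifs: Ifitm3 and Irgm1 rose, Ifitm2 did not pass, Ifit1 had almost no reads, and Isg20 fell. They are RefSeq windows of the GRCm38.p6 build, 250 bases before to 50 after a gene start, 5′ to 3′ on the strand of the gene. Capitals mark matches to GAAANNGAA, the core of an interferon-stimulated response element, on either strand. The windows are Ifitm3 at chr7:141010695-141010994 (minus strand), Ifitm2 at chr7:140955912-140956211 (minus), Irgm1 at chr11:48871371-48871670 (minus), Ifit1 at chr19:34640639-34640938 (plus) and, of the windows listed for Isg20, the one at chr7:78913174-78913473 (plus).
Ifitm3: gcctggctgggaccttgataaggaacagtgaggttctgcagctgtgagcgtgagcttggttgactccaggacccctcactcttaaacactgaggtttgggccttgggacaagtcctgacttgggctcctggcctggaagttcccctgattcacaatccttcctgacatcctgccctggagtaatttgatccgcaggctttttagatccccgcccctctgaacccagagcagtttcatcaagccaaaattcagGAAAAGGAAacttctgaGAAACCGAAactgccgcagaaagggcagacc
Ifitm2: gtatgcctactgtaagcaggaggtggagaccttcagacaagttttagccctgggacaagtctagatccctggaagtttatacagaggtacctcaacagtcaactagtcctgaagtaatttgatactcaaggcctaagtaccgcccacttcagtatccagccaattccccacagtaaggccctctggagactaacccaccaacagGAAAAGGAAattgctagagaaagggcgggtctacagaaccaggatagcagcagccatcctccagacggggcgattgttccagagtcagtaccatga
Irgm1: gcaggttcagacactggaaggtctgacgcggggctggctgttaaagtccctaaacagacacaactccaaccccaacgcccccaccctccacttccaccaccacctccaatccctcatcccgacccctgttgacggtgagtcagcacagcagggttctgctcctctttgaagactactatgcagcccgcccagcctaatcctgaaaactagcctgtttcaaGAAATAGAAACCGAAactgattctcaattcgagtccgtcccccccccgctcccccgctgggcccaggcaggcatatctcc
Ifit1: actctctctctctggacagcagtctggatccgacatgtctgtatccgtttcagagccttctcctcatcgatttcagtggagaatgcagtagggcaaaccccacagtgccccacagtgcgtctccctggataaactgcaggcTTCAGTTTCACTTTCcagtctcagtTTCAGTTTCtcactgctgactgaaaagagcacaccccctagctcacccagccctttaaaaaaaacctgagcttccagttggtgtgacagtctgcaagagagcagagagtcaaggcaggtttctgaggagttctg
Isg20: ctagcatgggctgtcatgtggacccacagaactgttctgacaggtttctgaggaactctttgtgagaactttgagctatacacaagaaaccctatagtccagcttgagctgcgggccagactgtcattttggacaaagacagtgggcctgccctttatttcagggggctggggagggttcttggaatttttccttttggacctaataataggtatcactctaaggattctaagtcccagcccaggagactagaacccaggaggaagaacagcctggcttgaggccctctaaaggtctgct

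The Ifitm3 and Irgm1 windows held 2 matches each, the Ifitm2 window 1, the Ifit1 window 3 and the Isg20 window none. The Ifit1 window thus had the most matches of the 5 and the Ifit1 gene the fewest reads. Windows were found for 40 of the 46 genes, and 19 of the 40, or 47.5%, held a match in at least 1 window, compared with 9.76% of all 27025 genes with a window. Matches were present in 7 of 14 genes that rose and in 6 of 15 that did not pass. Among the genes too low to test they were present in 5 of 9, and also in Oas1a. The gamma-activated site core TTCNNNGAA, on either strand and partly overlapping the first motif in Ifitm3, occurred in 13 of the 40 genes, or 32.5%, compared with 9.55% of all genes. It was present in Isg20. The 46 genes were listed for their part in the interferon response, so these shares are not independent of that choice. A match describes the letters of these windows and does not show that a factor was bound.

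ISG15 is a ubiquitin-like protein that is attached to other proteins, USP18 removes it, and TRIM25 is a ubiquitin ligase of antiviral signalling. Isg15 had 14.9, 11.9 and 16.8 normalised reads in STM2457 libraries and 12, 21.8 and 19.1 in DMSO libraries, with overlapping groups (limma adjusted p = 0.45), and passed as lower with upper-quartile centring (0.045). Usp18 had 3, 3 and 2 reads with STM2457 and 7, 4 and 4 with DMSO and was not tested. Trim25 was well expressed, with 1223, 1280 and 1297 normalised reads with STM2457 and 1167, 1108 and 1119 with DMSO, a 1.12-fold rise (limma adjusted p = 0.0037, and 0.074 with upper-quartile centring).

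Of the 13 other antiviral effector genes, 8 were too low to test or listed at 0. Of the 5 tested, 1 rose and 1 fell, beside 30.7% and 25.7% of all tested genes. With upper-quartile centring none rose and 1 fell, beside 22.3% and 38.2%. Isg20, for an exonuclease that degrades single-stranded RNA, had 301, 273 and 342 normalised reads in STM2457 libraries and 440, 471 and 505 in DMSO libraries. It fell to 0.646 of its DMSO level (95% interval 0.580 to 0.719, limma adjusted p = 3.0e-07), and was the only one of the 33 genes to fall in this fit. Its GRCm38 position is chromosome 7, bases 78913424 to 78920396, plus strand. Bst2, for tetherin, which holds budding virus particles at the cell surface, had 471, 425 and 433 normalised reads with STM2457 and 358, 380 and 416 with DMSO, a 1.15-fold rise (limma adjusted p = 0.015). The call of Bst2 was lost with upper-quartile centring (adjusted p = 0.13), without DMSO replicate 1 (0.078) and without STM2457 replicate 1 (0.10). Rtp4 (fold 0.922, adjusted p = 0.66), Ifi35 (1.03, 0.71) and Xaf1 (1.07, 0.68) did not pass, and their groups overlapped.

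PARP9 and DTX3L form a complex of an ADP-ribosyltransferase family member and a ubiquitin ligase, and PARP14 is a mono-ADP-ribosyltransferase. Parp14 had 110, 113 and 130 normalised reads in STM2457 libraries and 90.1, 93.3 and 75.3 in DMSO libraries, a 1.37-fold rise (limma adjusted p = 0.0029). Dtx3l had 200, 189 and 211 normalised reads with STM2457 and 166, 159 and 183 with DMSO, a 1.18-fold rise (limma adjusted p = 0.031). Its call was lost in 5 of 12 alternatives, the upper-quartile centring and the fits without DMSO replicate 1 or 2 or STM2457 replicate 1 or 3, with adjusted p-values up to 0.20. Parp9 averaged 227 ± 28.7 with STM2457 and 208 ± 21.3 with DMSO, with overlapping groups (SD, n = 3 each, limma adjusted p = 0.30). Dtx3l and Parp9 lie on opposite strands of chromosome 16 with overlapping exons, and whether counting used the strand is not stated, so reads of the pair may not have been told apart. Parp12 (fold 1.04, adjusted p = 0.71), Trim21 (1.16, 0.17) and Herc6 (0.887, 0.15) did not pass, and their groups overlapped. Herc6 passed as lower without DMSO replicate 2 (0.013) and with upper-quartile centring (0.023).

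Immunity-related GTPases and guanylate-binding proteins attack the vacuoles of intracellular microbes. Irgm1, for a regulator of the other immunity-related GTPases, had 315, 287 and 289 normalised reads in STM2457 libraries and 211, 181 and 194 in DMSO libraries. It rose 1.52-fold (95% interval 1.35 to 1.71, limma adjusted p = 1.3e-06) and occupies bases 48861968 to 48871683 of chromosome 11, minus strand. Igtp had 29.8, 20.9 and 27.7 normalised reads with STM2457 and 16, 16.9 and 16.1 with DMSO, a 1.57-fold rise (limma adjusted p = 0.024). Its call was lost in 4 of the 11 alternatives that tested it, the upper-quartile centring (adjusted p = 0.32) and the fits without DMSO replicate 3 or STM2457 replicate 1 or 3. Irgm2, whose exons overlap those of Igtp on the same strand, had 20.9, 24.8 and 27.7 normalised reads with STM2457 and 19.0, 14.9 and 23.1 with DMSO, and did not pass (limma adjusted p = 0.21). Gbp2 did not pass either (1.32-fold, limma adjusted p = 0.23).

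**Figure D2:**
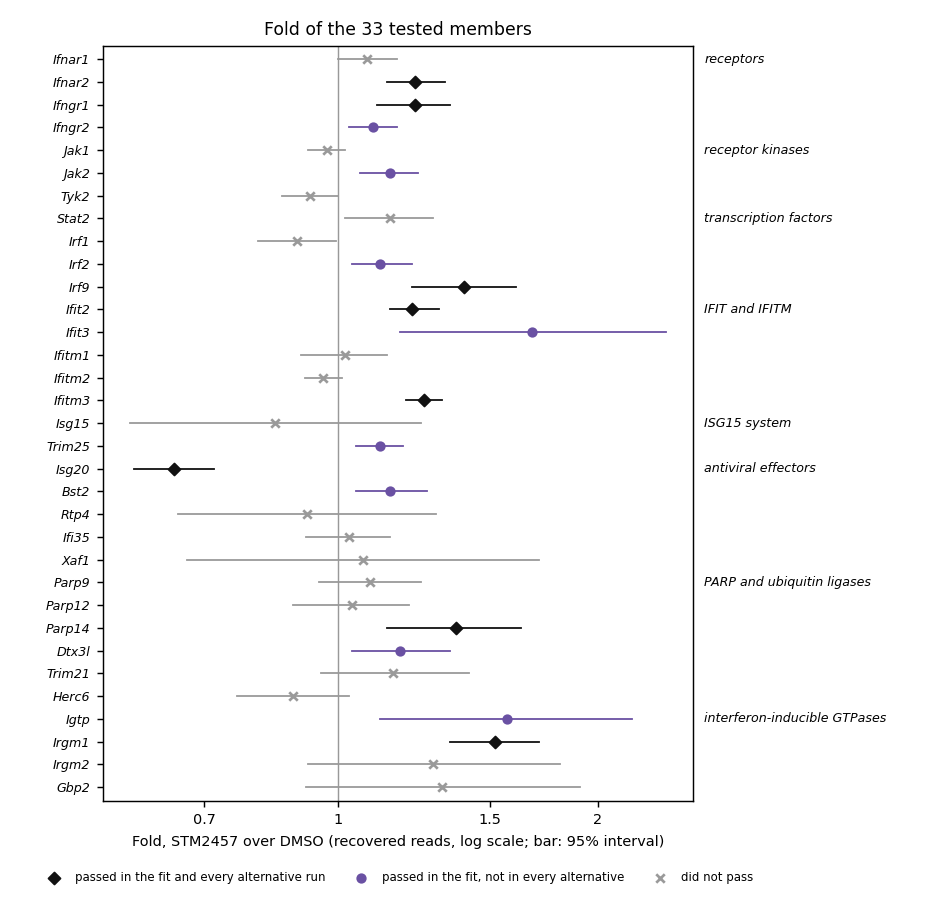
Fold of STM2457 over DMSO in the recovered reads (horizontal axis, log scale) for the 33 tested genes, ordered by role, with 95% intervals as bars. Diamonds are genes that passed in the fit and in every alternative, circles those that passed in the fit but not in every alternative, and crosses those that did not pass; Isg20, at 0.646, is the only symbol that passed below 1.

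The genes too low to test included many of the transcripts that rise most in cells exposed to interferon. These 12 genes were Irf7, Ifit1, Usp18, Rsad2, Mx1, Mx2, Oasl1, Oasl2, Cmpk2, Ifi44, Gbp3 and Gbp7. No library held more than 8 reads of any of them with STM2457 or more than 12 with DMSO, and 6 of the 12 had at most 2 reads in every library. Summed over the 12 genes, the reads numbered 22, 20 and 22 in STM2457 replicates 1 to 3 and 22, 20 and 31 in DMSO replicates 1 to 3. Rsad2, for the antiviral enzyme viperin, had 0, 1 and 2 reads with STM2457 and 1, 1 and 1 with DMSO. Oas1a, at 0 in every library, could have had up to 3 reads per library, or 0.167 to 0.17 CPM, a limit that covers counting error only. With no filter on low values all 45 genes with reads were tested, and again 15 rose and 1 fell, none of them among these 12. Of all 24138 genes tested in that run, 3743 rose and 3428 fell. A modest change in genes this low was not detectable at this depth. In the deposited data 11520 genes with reads were likewise too low to test.

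**Figure D3:**
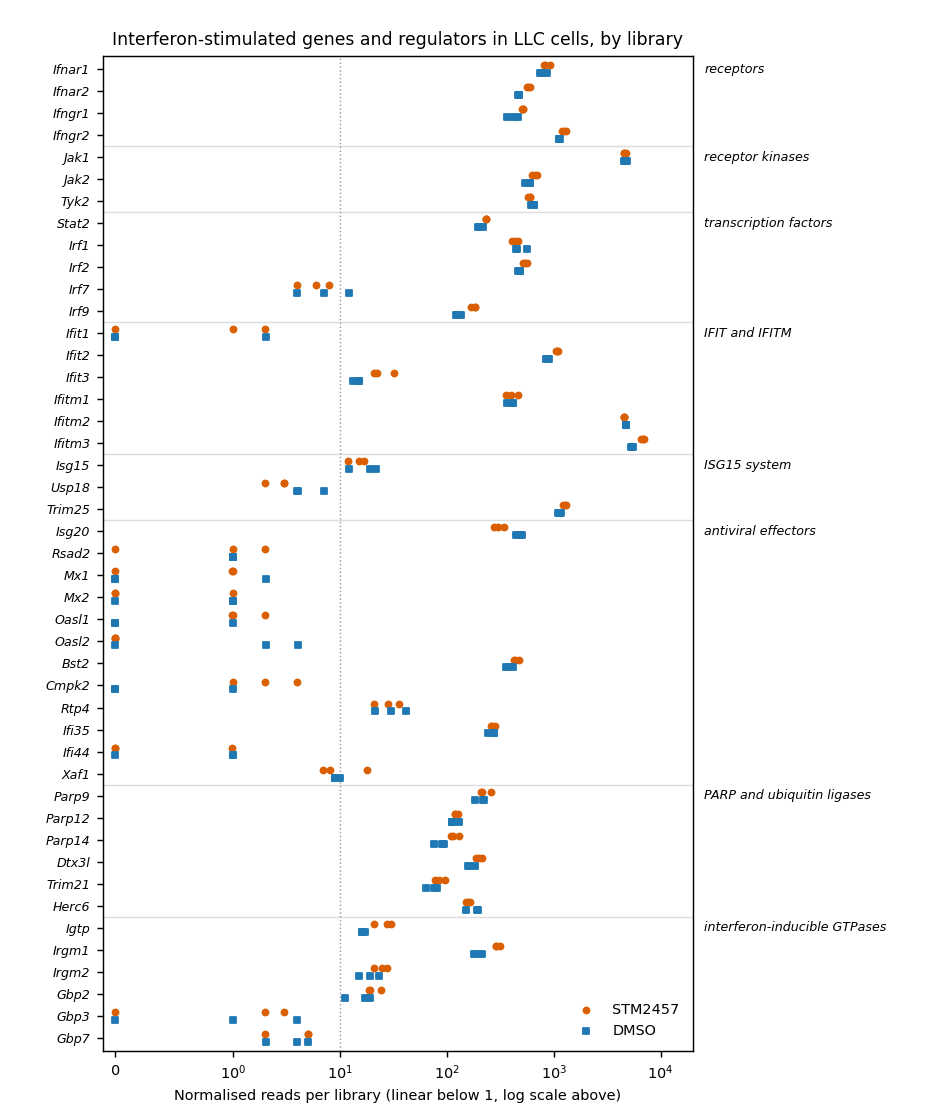
Normalised reads in each library (horizontal axis, linear below 1 and log above) for the 45 genes with reads, ordered by role, with STM2457 libraries as circles above and DMSO libraries as squares below. The dotted line marks 10 reads; the genes left of it, such as Ifit1, Rsad2 and Mx1, sit at a few reads in both groups, while Ifitm3, Ifitm2 and Jak1 lie farthest right.

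Of the 45 genes with reads, 9 have exons that overlap those of another gene on the same strand, Ifnar2, Irf9, Ifitm2 and Parp14 among them, and 10 on the opposite strand. Reads in such stretches may be shared. The same holds for some other pathway genes named below. Exons of Znfx1 overlap those of Zfas1 on the opposite strand, and Irf3, Ptpn6, Ifi30 and Cxcl10 also have opposite-strand overlaps. Il10rb and Ifi203 have overlaps on the same strand. Over the 45 genes, levels per kilobase of annotated exon spanned a wide range. Ifitm3 was highest, at 10052 ± 241 normalised reads per kilobase with STM2457 and 7997 ± 149 with DMSO (SD, n = 3 each). Ifitm2 followed at 6931 ± 38.1 per kilobase with STM2457 and 7211 ± 32.3 with DMSO. Jak1 was next, at 636 ± 14.2 per kilobase with STM2457 and 656 ± 21.3 with DMSO. The order of the first 6 genes, which went on with Bst2, Ifitm1 and Ifngr2, was the same in both groups, whereas Isg20 was number 11 with STM2457 and number 7 with DMSO.

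**Figure D4:**
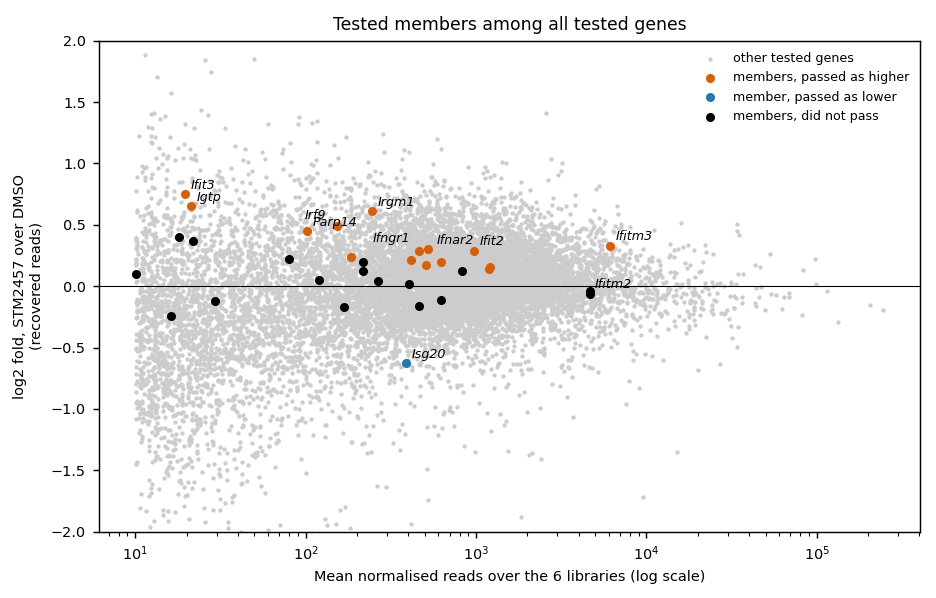
The log2 fold of STM2457 over DMSO in the recovered reads (vertical axis) against the mean normalised reads of the 6 libraries (horizontal axis, log scale) for all tested genes in grey and the 33 tested genes of the list in colour. The genes of the list lie within the grey cloud, and 20 genes beyond a log2 fold of 2 in size are outside the axis.

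Other genes of the pathway were followed in a list of 115 symbols, of which 63 were tested. Of these 27 rose, 11 fell and 25 did not pass (limma adjusted p under 0.05), and with upper-quartile centring 20 rose and 15 fell. Over all tested genes the shares were 30.7% higher and 25.7% lower, and 22.3% and 38.2% with upper-quartile centring. No ligand was tested. Of the 12 genes for ligands and the lambda receptor, 10 were listed at 0, Ifnb1, Ifng and Ifnl2 among them, and the ligand gene Ifne had at most a few reads. Il10rb, for a chain shared by the receptors of interferon lambda and interleukin 10, had 244, 256 and 227 normalised reads in STM2457 libraries and 136, 164 and 193 in DMSO libraries, a 1.49-fold rise (limma adjusted p = 5.3e-05).

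Of 17 tested genes for other signalling and feedback proteins, 8 rose and 4 fell, beside 30.7% and 25.7% of all tested genes, and 6 rose and 4 fell with upper-quartile centring, beside 22.3% and 38.2%. Socs1, for an inhibitor of JAK kinases, had 294, 340 and 305 normalised reads in STM2457 libraries and 201, 194 and 193 in DMSO libraries, a 1.59-fold rise (limma adjusted p = 2.0e-07). Socs3, for a related inhibitor, had 795, 784 and 881 normalised reads with STM2457 and 1026, 993 and 953 with DMSO, and fell to 0.827 of its DMSO level (adjusted p = 1.0e-04). The transcription factor gene Irf3 (1.28-fold), the coactivator gene Crebbp (1.33-fold) and the phosphatase gene Ptpn1 (1.16-fold) also rose. The SUMO ligase gene Pias2 (fold 0.889) and the phosphatase genes Ptpn6 (0.826) and Ptpn2 (0.900) fell.

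Of 45 tested genes among the other interferon-stimulated genes, 18 rose and 7 fell, beside 30.7% and 25.7% of all tested genes, and 13 rose and 11 fell with upper-quartile centring, beside 22.3% and 38.2%. Znfx1, for a helicase-like RNA sensor, had 620, 636 and 644 normalised reads in STM2457 libraries and 409, 354 and 376 in DMSO libraries, a 1.67-fold rise (limma adjusted p = 4.7e-10). The chaperone gene Daxx (1.36-fold), the lysosomal thiol reductase gene Ifi30 (1.28-fold) and the ubiquitin ligase gene Trim26 (1.23-fold) rose as well. Ifi204, for a DNA-binding protein of the p200 family, had 376, 381 and 432 normalised reads with STM2457 and 679, 623 and 755 with DMSO, and fell to 0.579 (adjusted p = 3.9e-09). Ifi27 (0.773), the chemokine gene Cxcl10 (0.584) and Ifi203 (0.625) also fell. In each of these 8 genes the libraries of STM2457 and of DMSO did not overlap. This follows in large part from choosing them by smallest adjusted p in the same libraries. Of all tested genes, 33.4% had every STM2457 library above every DMSO library and 28.4% had every one below.

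The DMSO libraries were spread along the second principal component of all tested genes, which held 6.3% of the variance, at 3.49, -3.95 and 0.83 for replicates 1 to 3, against 0.17, -0.33 and -0.21 for STM2457 replicates 1 to 3. Over the 33 genes DMSO replicate 2 was the highest DMSO library in 9 and the lowest in 10. Without it 14 genes rose and 2 fell, and without DMSO replicate 1 the counts were the same. Of all 12618 tested genes 3787 rose and 3114 fell without DMSO replicate 2. Without DMSO replicate 1 the numbers were 3797 and 3152.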

How the data were processed

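LLC cells with STM2457 or DMSO gave 3 libraries each, from SMARTER mRNA-Seq preparation of TRIzol-extracted RNA. HISAT2 2.2.1, featureCounts 2.0.1 (Subread), FastQC 0.11.9, DESeq2 and the GRCm38 build are named, per the submitters' processing notes. The authors deposited log2 values, 1 column per library. The transform, annotation and strand setting are not stated. The values have the form of a regularised log2 transform. Its equations were inverted with parameters estimated from the values (ridge penalty 60.2, dispersion 1.90 over the mean plus 0.0111, size factors 0.995 to 1.01), and the reads obtained were rounded. Values were whole to within 0.05 reads in 98.1% of cases at means of 5 to under 100 reads, 96.0% from 100, 87.7% from 500 and 62.0% from 2000. Transforming the rounded reads forward gave the deposited values to a median of 6.8e-06 and at most 0.01 on the log2 scale.

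The test covered genes whose deposited values averaged 3.32 or more (10 reads). It used limma 3.58.1 in R 4.3.3 (group as the only term, trend and robust priors through statmod 1.5.0, no pseudocount). Beforehand the procedure was run on simulated data with far fewer changed genes than here, a run that does not bear on the scaling. Folds and 95% intervals come from limma-voom on the recovered reads. The symbols, coordinates and exon lengths come from GENCODE M21 on GRCm38, and promoters from RefSeq. Lists, members and the rule for naming genes (every member, and of other pathway genes the 4 of smallest adjusted p per list and direction) were chosen with earlier results of these data known. The listed symbol Parp13 had no values under that name. It is another name of Zc3hav1, which was in the same list and was tested. Alternatives were a replicate block, upper-quartile centring, no and a stricter filter (50 reads), limma without trend and robust priors, limma-voom and leaving out each library. Same-numbered libraries deviated together only weakly, with correlations of 0.05, 0.011 and 0.04, so the numbers were not taken to pair them.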

Additional observations from a re-analysis of the deposited data

How the results depend on the processing

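The counts over the 33 tested genes, 15 higher and 1 lower, moved with upper-quartile centring of the deposited values to 7 higher and 7 lower. Over all 12618 tested genes they moved from 3868 higher and 3240 lower to 2819 higher and 4814 lower. Leaving out 1 library at a time gave 11 to 14 higher and 1 to 2 lower, the second being Irf1 without DMSO replicate 1 and Herc6 without DMSO replicate 2. In those runs 3402 to 3797 of all 12618 tested genes were higher and 2704 to 3152 lower. With the replicate number as a block the counts were 15 and 1, and the block changed no call of the 33 genes. It moved the count of all genes to 3864 higher and 3226 lower. The samples share only a number, and STM2457 replicate 2 correlated with DMSO replicate 1 (0.012) as much as with its own number (0.011). Some genes that did not pass changed sign, all without passing. With upper-quartile centring the log2 difference was -0.026 for Ifitm1, -0.022 for Ifi35, -0.026 for Xaf1, -0.021 for Parp12, -3.9e-05 for Irgm2 and -0.0032 for Gbp2. With 1 library left out at a time it ran from -0.038 to 0.051 for Ifitm1, from -0.049 to 0.016 for Rtp4, from -0.0098 to 0.029 for Ifi35 and from -0.014 to 0.026 for Xaf1. The cause was not tested. With no filter on low values 45 genes were tested and the counts were again 15 and 1, with none of the 12 genes of few reads among them. In that run 3743 of all 24138 genes were higher and 3428 lower. At this depth a modest change in those 12 could be missed.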
